A study of Mus musculus with 4 samples.

Results

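The kinesin genes of the mouse were described in male germ cells sorted from the juvenile testis, with and without *Zfp541*. They were taken by symbol, as every gene whose name is *Kif* followed by further letters or digits, or *Klc* followed by a digit. This gave 48 of the 24411 genes listed: 41 heavy-chain genes, the 4 light-chain genes *Klc1* to *Klc4*, the kinesin-associated protein gene *Kifap3*, the KIF1-binding protein gene *Kif1bp*, and *Kif16bos*, annotated as an antisense RNA beside *Kif16b*. The members were grouped by their textbook roles into 15 spindle kinesins, 19 transport kinesins with their light chains, and 12 kinesins of cilia, flagella and spermatids, which left *Kif1bp* and *Kif16bos* outside these groups.

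RNA was sequenced from GFP-positive testis cells at postnatal day 18 in 2 *Zfp541*+/- samples, which are the controls, and 2 *Zfp541* KO samples. All 4 samples carried the *Rec8-3FH-GFP* KI allele, which marks cells that make the meiotic cohesin REC8. One control testis was heterozygous and the other homozygous for this reporter, both KO testes were homozygous, and the labels do not say which control is which. The strain is labelled as a mix of C57BL/6 and CBA, whereas the methods of the study place the mice on C57BL/6, and the KO allele removes exons 1 to 13 of *Zfp541*. The question was how the transcriptome of spermatocytes differs when ZFP541, a zinc-finger protein of pachytene spermatocytes, is missing.

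Kinesins are motors that turn ATP hydrolysis into movement along microtubules, or that take microtubule ends apart. In a spermatocyte, spindle kinesins act at the meiotic divisions, where they separate the poles, move and align chromosomes, and organize the midzone at cytokinesis. Transport kinesins carry membrane, mRNA and organelles, and another set moves material into cilia and later serves the manchette and flagellum of the spermatid.

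The values are TPM, an abundance per transcript length that is scaled to a fixed sum per library, so sequencing depth is unknown and no counting interval can be given. The targeted gene went against its label: *Zfp541* stood at 112 TPM in control 1 and 72.2 TPM in control 2, lower than the 136 and 151 TPM of KO 1 and KO 2, so every direction here rests on the labels alone. *Rec8* was at 7.05 and 27.9 TPM among controls, compared with 27.7 and 19.4 TPM in the KO libraries. The controls differed in the levels of cell type markers. A list of 6 Leydig cell markers summed to 2910 TPM in control 1, 18.0 TPM in control 2, and 331 and 504 TPM in KO 1 and 2. The 8 pachytene and diplotene markers summed to 8520 and 4895 TPM in the control pair against 2523 and 3650 TPM in the KO libraries, whereas 7 markers of early prophase summed to 1517 and 1926 TPM against 3024 and 2962 TPM. Most of that early prophase sum was *Sycp3*, at 1108 and 1263 TPM against 2093 and 2196 TPM. Of the 7, 5 lay above both controls in both KO libraries, and *Stra8* and *Spo11* overlapped. The 8 spermatogonial markers summed to 260 and 798 TPM in controls 1 and 2 and to 464 and 388 TPM in KO 1 and 2. The 5 peritubular myoid markers summed to 12.3 and 18.65 TPM against 24.7 and 18.5 TPM. Sertoli cell markers summed to between 1457 and 2022 TPM in every library, and macrophage and blood markers to 21.4 TPM in control 2 and 308 to 488 TPM in the others. The 8 spermatid markers summed to 20.8 and 21.2 TPM in the controls against 38.3 and 36.5 TPM. Of these, *Prm1*, *Prm2* and *Acrv1* were at no more than 1.48 TPM in any library, and the highest was *Spaca1*, at 7.34 to 27.0 TPM. In such bulk samples, fewer cells of a type and less RNA per cell cannot be told apart.

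**Figure D1:**
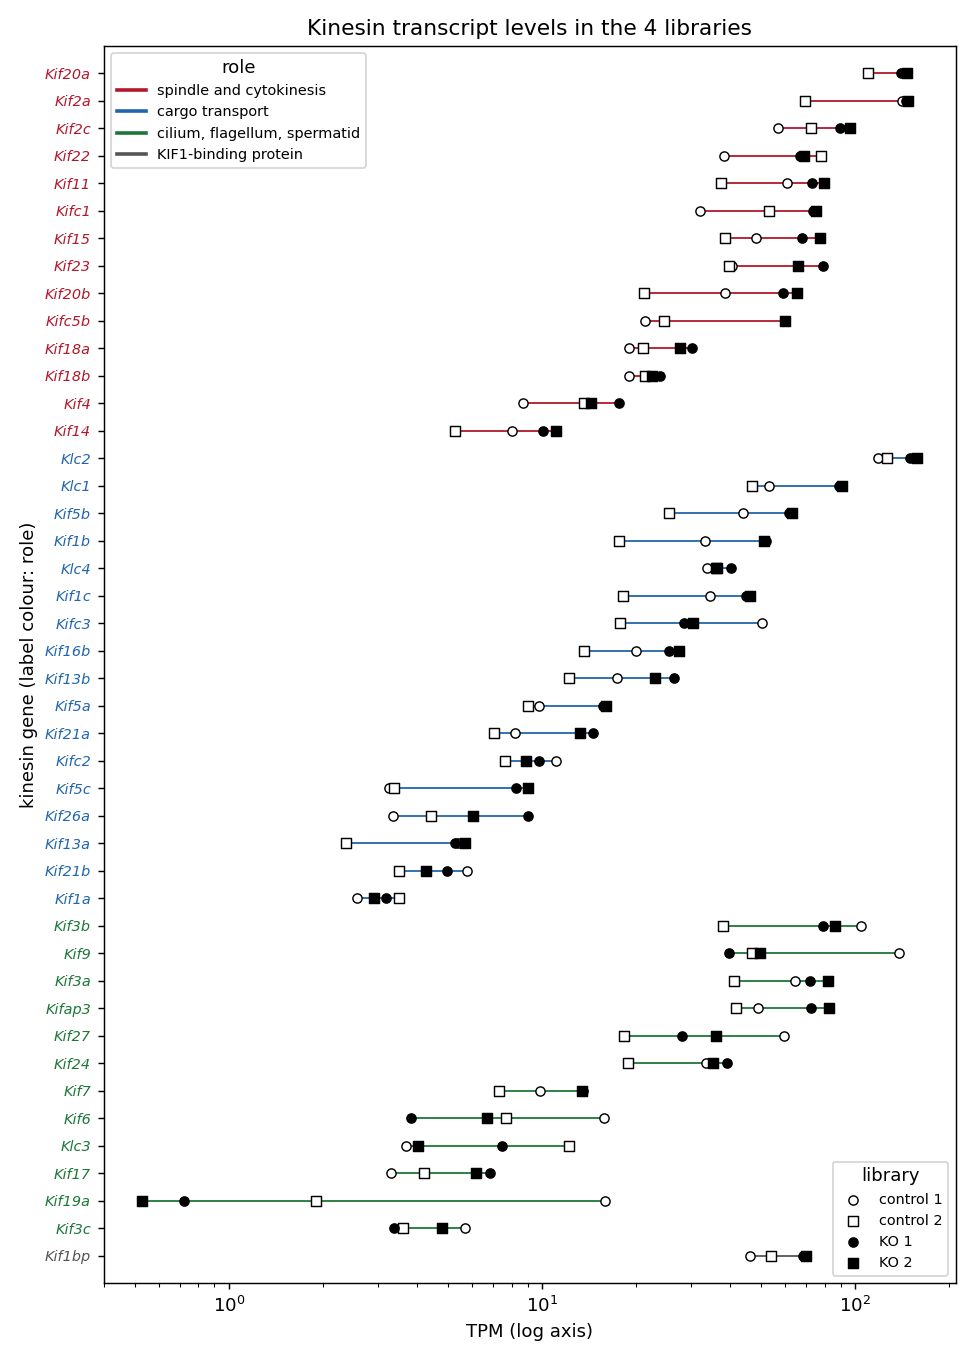
Level of each kinesin gene in each library, in TPM on a log axis, grouped by role, with a point for each of controls 1 and 2 and of the libraries labelled KO 1 and 2. The points of the KO libraries lie close together in most genes, whereas those of the controls are often apart, and the summed level over all 48 genes was 1646 and 1257 TPM among controls, compared with 1960 and 2028 TPM in the KO libraries.

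Kinesin transcripts were abundant, and most were at a higher level in the libraries labelled *Zfp541* KO than in either control, although none passed the test. Of the 48 members, 44 had a mean of at least 1 TPM and were tested, and 32 had a mean above 10 TPM. The other 4 were *Kif12*, listed at 0 in all libraries, *Kif26b*, at no more than 0.24 TPM, *Kif2b*, at no more than 0.50 TPM, and *Kif16bos*, listed at 0 in 3 libraries and at 0.52 TPM in KO 1. The spindle genes summed to 642 and 606 TPM in controls 1 and 2 and to 936 and 959 TPM in KO 1 and 2. The transport genes summed to 454 and 356 TPM against 589 and 592 TPM. The genes of cilia and spermatids summed to 504 and 242 TPM against 366 and 408 TPM, so the KO libraries lay between the controls.

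By limma on log2(TPM + 1), 0 of the 44 kinesins and 0 of the 14512 genes tested (0%) differed between the groups at an FDR of 0.05, and the adjusted p of the kinesins ran from 0.310 to 0.990. At an unadjusted p under 0.05 there were 10 kinesins higher in the KO libraries and 0 lower, against 10.7% and 3.73% of all genes tested. Both KO libraries lay above both controls for 30 kinesins (68.2%), against a background of 38.6%, and below both for 2, *Kif19a* and *Kif6* (4.55%), against 12.1%. The median log2 fold change, KO over control, was 0.55 over the 44 kinesins and 0.28 over all genes tested. The latter shift depended on the scale of the libraries: after each library was scaled by its median ratio to the others, the median was -0.015 for all genes and 0.22 for the kinesins. On that scale 18 kinesins lay above both controls and 6 below, against 22.6% and 22.8% of all genes tested.

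The agreement between replicates was unequal. The KO libraries lay within 1.2-fold of each other for 35 of the 44 kinesins, and the controls for 13. The same counts were not made over all genes tested. With control 1 left out, limma called 26 kinesins higher and 0 lower at an FDR of 0.05, where 38.7% of all genes tested were called higher and 9.47% lower. With control 2 left out it called 12 higher and 4 lower, against 15.5% and 12.9%. In these fits the spread comes from the KO pair alone, and the lone control is assumed to vary as that pair does. The kinesins called higher in both were 9, namely *Kifc5b*, *Kifc1*, *Kif20b*, *Kif23*, *Klc1*, *Kif5b*, *Kif5c*, *Kif1b* and *Kifap3*, and 0 were called lower in both, against 9.92% and 3.18% of all genes tested.

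**Figure D2:**
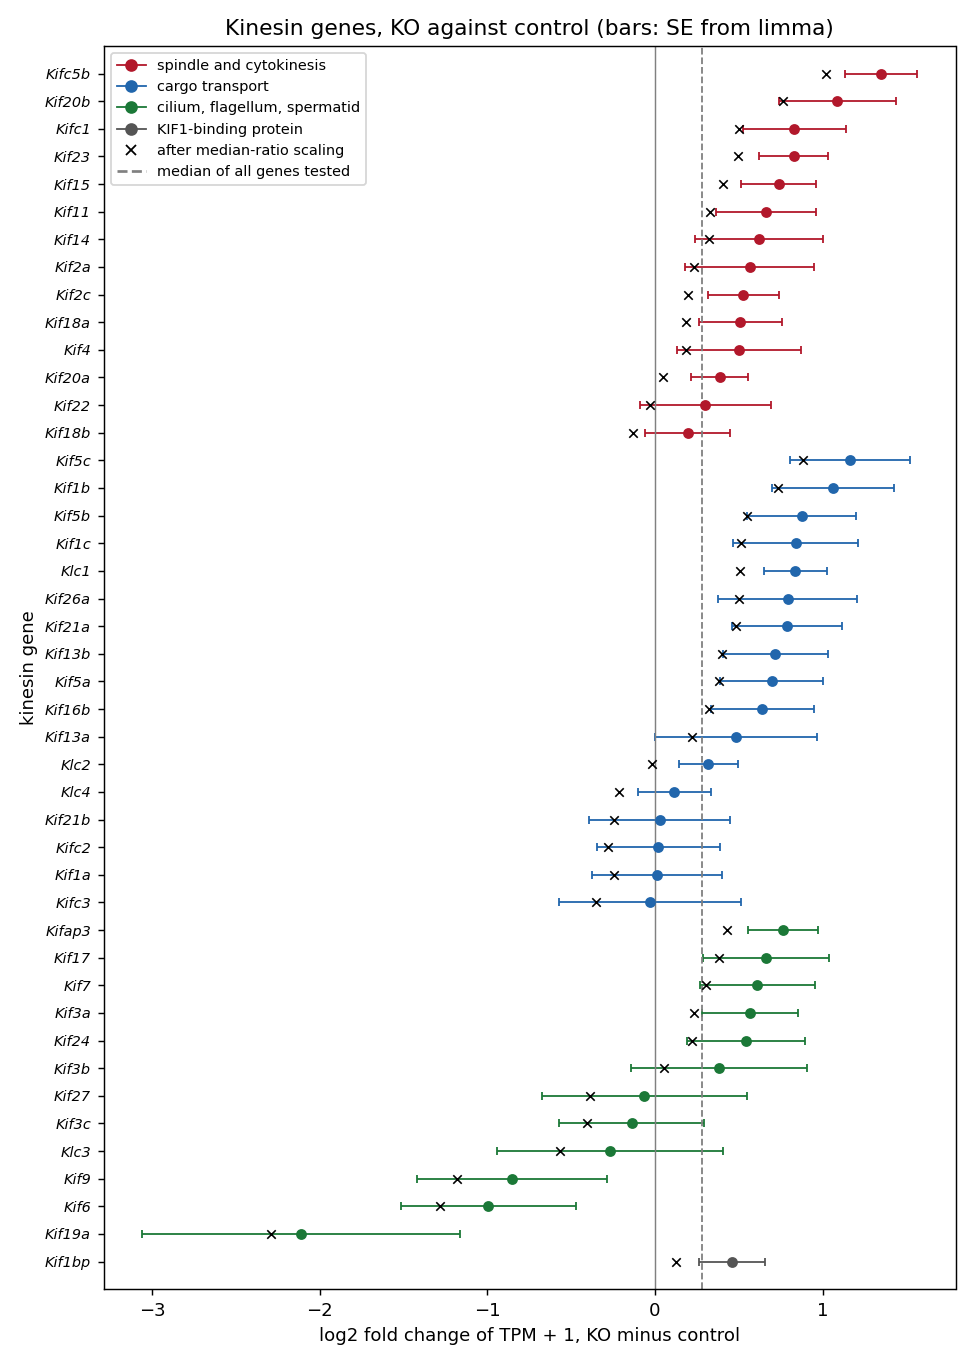
Log2 fold change (libraries labelled KO over controls, log2 of TPM + 1) of the 44 kinesins tested, by role, with bars of 1 standard error from limma, n = 2 in each group. All 14 spindle genes lie to the right of 0, 16 of the 17 transport genes do, and the genes of cilia and spermatids fall on both sides, 6 on each.

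The spindle kinesins were the group in which the members lay most evenly on one side. The fitted change was above 0 for 14 of 14 genes tested, with a median of 0.59, and both KO libraries were above both controls for 13 of them (92.9%, against 38.6% of all genes tested), the exception being *Kif22*. None passed an FDR of 0.05 by limma, and 5 were higher at an unadjusted p under 0.05 (35.7%, against 10.7%). After median-ratio scaling the median was 0.28, 12 of the 14 were still above 0, and 6 lay above both controls (42.9%, against 22.6%).

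The member with the largest positive change of all kinesins was *Kifc5b*, a second copy of the gene for the minus-end-directed motor KIFC1, which bundles microtubules and focuses spindle poles. *Kifc5b* measured 21.4 TPM in control 1 and 24.5 TPM in control 2, compared with 59.7 TPM in KO 1 and 59.9 TPM in KO 2. The groups lay far apart compared with the distance within each, with a log2 fold change of 1.35 (SE 0.22, adjusted p = 0.310, unadjusted p = 0.0026 by limma). *Kifc1* itself was at 32.0 and 53.0 TPM in the control pair against 73.2 and 75.0 TPM in the KO libraries, a log2 fold change of 0.83 (SE 0.31, adjusted p = 0.345). Both genes lie on chromosome 17 (GRCm38.p6), *Kifc5b* on the plus strand at chr17:26917091-26932583 and *Kifc1* on the minus strand at chr17:33875659-33890661.

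Part of the RNA of these copies cannot be told apart by reads. Their longest reading frames, of 2025 bases in *Kifc1* and 2019 bases in *Kifc5b*, were 98.1% identical over 2025 aligned columns, with 32 substitutions and 6 gap columns. Of all 75-base stretches of the transcript, the length of the reads, 33.5% of those of *Kifc1* occurred unaltered in *Kifc5b* and 29.9% of those of *Kifc5b* in *Kifc1*. The 30 bases with the most differences show where reads could separate them. They are bases 24 to 53 of the reading frame in *Kifc1* and bases 21 to 50 in *Kifc5b*, with the 9 differing bases in capitals.
Kifc1: aCCTTTGTTggaagTgaagaggaacgtaga
Kifc5b: aAAGGGAAGggaagGgaagaggaacgtaga
Because the split of shared reads between the copies is an estimate, their levels were also added. The sum was 53.4 and 77.5 TPM among controls, compared with 133 and 135 TPM in the KO libraries, a log2 fold change of 1.05 (SE 0.25, adjusted p = 0.310 by limma). The ratio of *Kifc5b* to *Kifc1* was 0.669 and 0.462 in the controls and 0.815 and 0.799 in the KO libraries.

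Of the midzone and cytokinesis motors, *Kif20b*, whose product acts at the end of cytokinesis, was at 38.6 and 21.3 TPM in the control pair against 59.0 and 65.4 TPM in the KO libraries (log2 fold change 1.09, SE 0.35, adjusted p = 0.322). *Kif23*, the motor of the centralspindlin complex, was at 40.5 and 39.7 TPM against 78.9 and 65.7 TPM (0.83, SE 0.21, adjusted p = 0.310). The controls agreed closely for *Kif23* and not for *Kif20b*, and in both genes the groups did not overlap. *Kif20a*, which brings the chromosomal passenger complex to the midzone, was at 109.8 and 109.7 TPM among controls, compared with 140.4 and 147 TPM in the KO libraries (0.39, SE 0.17, adjusted p = 0.386). The ratio of *Kif20b* to *Kif20a* was 0.351 and 0.194 in the controls and 0.420 and 0.445 in the KO libraries. *Kif14*, a midbody kinesin, was at 8.04 and 5.28 TPM against 10.1 and 11.1 TPM, and *Kif4*, a chromokinesin that also sets midzone length, at 8.72 and 13.7 TPM against 17.6 and 14.4 TPM. The *Kif4* pseudogene *Kif4-ps* had its own value, 19.0 TPM in control 1 and 3.48 to 6.17 TPM in the other libraries, so its ratio to *Kif4* was 2.18 in control 1 and no more than 0.429 elsewhere.

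*Kif11*, the tetrameric motor that pushes spindle poles apart, was at 60.8 and 37.4 TPM in the control pair against 72.7 and 79.6 TPM in the KO libraries (0.66, SE 0.30, adjusted p = 0.391). *Kif15*, which shares that work, was at 48.2 and 38.4 TPM against 67.8 and 77.4 TPM (0.74, SE 0.22, adjusted p = 0.320). For both, control 1 was the higher control, and neither control reached a KO library.

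The depolymerases and chromosome-aligning motors ranged from abundant to scarce. *Kif2a*, which acts at spindle poles and was, with *Kif20a*, the most abundant of the spindle genes by mean TPM, was at 140.9 TPM in control 1 and 69.4 TPM in control 2, with the KO libraries at 146 and 148 TPM (0.56, SE 0.38, adjusted p = 0.531). Control 1 thus lay almost level with the KO libraries, and the change was 0.06 with control 2 left out and 1.07 with control 1 left out. *Kif2c*, the centromeric depolymerase, was at 56.8 and 72.5 TPM against 89.9 and 96.1 TPM (0.53, SE 0.21, adjusted p = 0.365), here with control 2 the higher. *Kif18a*, which holds chromosomes near the equator, was at 19 and 21.1 TPM against 30.2 and 27.6 TPM (0.51, SE 0.25, adjusted p = 0.412). *Kif18b*, a plus-end motor of astral microtubules, was at 19.0 and 21.3 TPM against 23.9 and 22.5 TPM, a change of 0.19 that was -0.13 after median-ratio scaling. *Kif22*, which pushes chromosome arms away from the poles, was at 38.2 TPM in control 1 and 78.0 TPM in control 2, with the KO libraries between them at 66.6 and 68.6 TPM, and its change of 0.30 was -0.03 after that scaling, -0.20 without control 1 and 0.81 without control 2. *Kif2a* and *Kif22* went opposite ways between the controls, and the ratio of *Kif22* to *Kif11* was 0.629 in control 1 and 2.08 in control 2 against 0.917 and 0.861 in the KO libraries.

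The centromere motor *Cenpe*, a kinesin under another symbol and so not a member, was at 30.1 and 16.0 TPM among controls, compared with 59.1 and 67.6 TPM in the KO libraries (1.48, SE 0.37, adjusted p = 0.310). A list of 16 spindle genes that work with these kinesins, *Cenpe* included, had 9 above both controls (56.2%) and 3 below (18.8%), against 38.6% and 12.1% of all genes tested, with a median of 0.38 (0.05 after scaling). *Ckap5*, a microtubule polymerase, was at 106 and 89.9 TPM against 221 and 226 TPM (1.18, SE 0.19, adjusted p = 0.310). *Aurka*, the pole kinase, was at 123 and 136 TPM against 96.2 and 105 TPM (-0.36, SE 0.18, adjusted p = 0.423). *Prc1*, which crosslinks the midzone, was at 169 and 100.1 TPM against 138 and 163 TPM, and *Cdca8*, of the passenger complex, at 174 and 227 TPM against 190 and 200 TPM, so that for both the KO libraries lay within the controls.

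A short sequence was more frequent in the promoters of spindle kinesins than in those of the other kinesins, a count for which no test was run. Promoters from RefSeq (GRCm38.p6, 250 bases before to 50 bases after each start) were found for 39 of the 48 genes, 43 promoters in all, and were searched on both strands for TTTGAA, the core of the cell cycle gene homology region known from promoters of genes for the late cell cycle. It was present in 11 of 15 spindle promoters (73.3%), 2 of 14 transport promoters (14.3%) and 1 of 12 promoters of cilium and spermatid genes (8.33%). The share was 12.0% over the promoters of all genes tested and 17.9% over all promoters in the table. The median GC content was 63.0% for kinesin promoters and 60.3% for those of genes tested. In 9 spindle promoters a match began within 30 bases of the start. These are printed on the strand of the gene with the match in capitals, where TTCAAA is TTTGAA read on the opposite strand, and the position is the offset of its first base from the annotated start.
Kif11, -19, chr19:37376352-37376379, plus strand: cgtctccatttTTCAAAattgaggcgcg
Kif15, -19, chr9:122951051-122951078, plus strand: ggggcgccaaaTTCAAAtctgcggccat
Kif22, -17, chr7:127042421-127042448, minus strand: ggccccggtaaTTCAAAagagagaagcg
Kifc1, 1, chr17:33890616-33890643, minus strand: ggaggttgaaaTTCAAAagtggcgggtg
Kif23, 2, chr9:61946781-61946808, minus strand: tgattggcctgTTTGAAatgcgccgggc
Kif18b, 3, chr11:102925105-102925132, minus strand: ggaccggctagTTTGAAcgcgccgcgcc
Kif20b, 7, chr19:34922354-34922381, plus strand: agccgccattgTTTGAAtttgaaaaccg
Kif4, 19, chrX:100626073-100626100, plus strand: tctgggatcaaTTTGAAacttggcggtt
Kifc5b, 29, chr17:26917109-26917136, plus strand: ggaggttgaaaTTCAAAagtgactggtg
The windows of *Kifc1* and *Kifc5b* share their first bases, and in *Kif20b* a second TTTGAA follows the first directly. Spindle genes with a match ranged in fitted log2 fold change from 0.19 for *Kif18b* to 1.35 for *Kifc5b*, and *Kif20a*, *Kif2a* and *Kif18a* have none in the window searched. A match is only a description of letters, and binding at these windows was not measured here.

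Transport kinesins were also mostly higher in the libraries labelled *Zfp541* KO. Their largest changes were those of *Kif5c*, a heavy chain of the conventional kinesin that carries vesicles and mitochondria, and of *Kif1b*. The fitted change was above 0 for 16 of 17 genes tested, with a median of 0.70, and 11 lay above both controls (64.7%, against 38.6% of all genes tested) and 0 below (against 12.1%). None passed an FDR of 0.05 by limma, and 4 were higher at an unadjusted p under 0.05 (23.5%, against 10.7%). After median-ratio scaling the median was 0.38, with 11 of the 17 changes above 0 and 6 below 0. On that scale 9 genes lay above both controls (52.9%, against 22.6%) and 2 below, *Kifc2* and *Kif21b* (11.8%, against 22.8%).

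All 3 conventional heavy chains were higher in both KO libraries than in either control. *Kif5b*, the broadly expressed one, was at 43.9 and 25.6 TPM in the control pair against 61.6 and 63.0 TPM in the KO libraries (0.87, SE 0.32, adjusted p = 0.347). *Kif5a*, better known from neurons, was at 9.81 and 9.02 TPM against 15.7 and 16.1 TPM (0.70, SE 0.31, adjusted p = 0.385). The other neuronal gene, *Kif5c*, was at 3.24 and 3.37 TPM against 8.29 and 9.01 TPM (1.16, SE 0.36, adjusted p = 0.320). *Kif5b* thus made up most of the sum, which was 57.0 and 37.9 TPM among controls, compared with 85.6 and 88.1 TPM in the KO libraries. The controls agreed more closely for *Kif5c* and *Kif5a* than for *Kif5b*.

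Their light chains, which bind cargo, were more abundant than the heavy chains and differed unequally between the groups. *Klc2* was the most abundant kinesin gene of all, at 119 and 127 TPM in the control pair against 149.6 and 158 TPM in the KO libraries (0.32, SE 0.17, adjusted p = 0.447), and its change was -0.015 after median-ratio scaling. *Klc1* was at 53.0 and 46.8 TPM against 89.1 and 90.6 TPM (0.84, SE 0.19, adjusted p = 0.310), and its change after scaling was 0.51. The ratio of *Klc1* to *Klc2*, which scaling does not touch, was 0.446 and 0.368 in the controls and 0.595 and 0.575 in the KO libraries, without overlap. How often the ratios of other gene pairs separate the groups was not counted. *Klc4* was at 33.7 and 36.3 TPM against 40.1 and 36.0 TPM, with overlap, and its change of 0.12 was -0.21 after scaling.

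**Figure D3:**
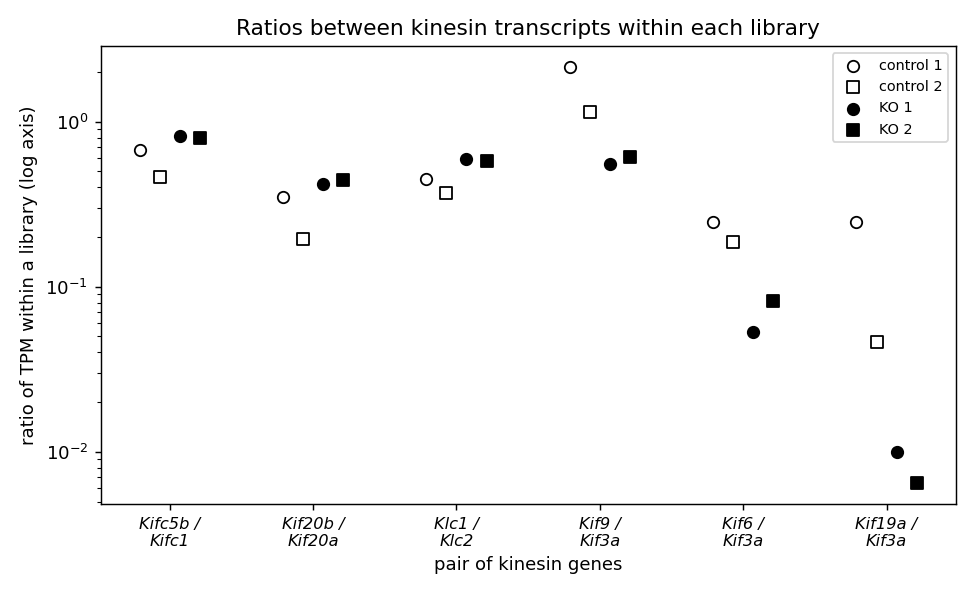
Ratios of TPM between kinesin genes within each library, on a log axis, with a point for each of controls 1 and 2 and of the libraries labelled KO 1 and 2. *Klc1* over *Klc2*, *Kifc5b* over *Kifc1* and *Kif20b* over *Kif20a* lie higher in both KO libraries than in either control. *Kif9*, *Kif6* and *Kif19a* over *Kif3a* lie lower. Only pairs whose groups do not overlap are drawn. The groups overlapped for *Kif5a* over *Kif5b*, *Kif3b* over *Kif3a*, *Kif22* over *Kif11*, *Kif2c* over *Kif2a* and *Kif4-ps* over *Kif4*, which are not drawn. The share of other gene pairs without overlap was not counted.

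Axonal-type vesicle carriers of the *Kif1* family split by member. *Kif1b*, a carrier of mitochondria and synaptic vesicle precursors, was at 33.2 and 17.6 TPM among controls, compared with 52.1 and 51.3 TPM in the KO libraries (1.06, SE 0.36, adjusted p = 0.331). *Kif1c*, which carries dense-core vesicles and mRNA, was at 34.5 and 18.1 TPM against 44.9 and 46.3 TPM (0.84, SE 0.37, adjusted p = 0.386). Control 2 was the lower control in both. *Kif1a*, mostly neuronal, was at 2.56 and 3.51 TPM against 3.17 and 2.92 TPM, within the controls. *Kif1bp*, whose product binds and inhibits several of these motors, was at 46.4 and 53.8 TPM against 68.2 and 69.7 TPM (0.46, SE 0.20, adjusted p = 0.381).

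The endosomal and cortical carriers were scarcer. *Kif16b*, a motor of early endosomes, was at 19.9 and 13.7 TPM in the control pair against 25.4 and 27.3 TPM in the KO libraries (0.64, SE 0.31, adjusted p = 0.409). *Kif13b* was at 17.4 and 12.2 TPM against 26.4 and 23.0 TPM (0.72, SE 0.31, adjusted p = 0.383), and *Kif13a*, which serves recycling endosomes, at 5.39 and 2.37 TPM against 5.29 and 5.69 TPM, with overlap. *Kif21a*, which limits microtubule growth at the cell cortex, was at 8.19 and 7.04 TPM against 14.5 and 13.2 TPM (0.79, SE 0.33, adjusted p = 0.370), and its relative *Kif21b* at 5.75 and 3.49 TPM against 4.99 and 4.27 TPM, within the controls. *Kif26a*, which lacks motor activity, was at 3.34 and 4.41 TPM against 9.03 and 6.01 TPM (0.79, SE 0.41, adjusted p = 0.434). The minus-end motors differed from these: *Kifc2* was at 11.1 and 7.60 TPM against 9.78 and 8.91 TPM, and *Kifc3*, which acts at adherens junctions and centrosomes, at 50.4 and 17.8 TPM against 28.5 and 30.5 TPM. For *Kifc3* the change was -0.03, but it was -0.75 with control 2 left out and 0.70 with control 1 left out.

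Cargo adaptors and dynein were counted beside the transport kinesins. Of 16 adaptors, 6 lay above both controls (37.5%) and 2 below (12.5%), close to the 38.6% and 12.1% of all genes tested, with a median of 0.11 (-0.21 after scaling). *Spag9*, a scaffold between kinesin light chains and JNK signalling, was at 63.7 and 32.2 TPM among controls, compared with 112 and 122 TPM in the KO libraries (1.35, SE 0.38, adjusted p = 0.315), and its relative *Mapk8ip3* at 71.4 and 54.6 TPM against 106 and 101 TPM (0.72, SE 0.22, adjusted p = 0.320). The lysosomal adaptor *Arl8b*, at 75.0 to 96.3 TPM, and the mitochondrial adaptor *Rhot1*, at 49.1 to 65.1 TPM, did not separate the groups. Of 16 genes of cytoplasmic dynein and dynactin, the opposing motor, 8 lay above (50.0%) and 2 below (12.5%), beside the same 38.6% and 12.1%, with a median of 0.26 (-0.07 after scaling). Its heavy chain *Dync1h1* was at 158 and 89.7 TPM against 191 and 199 TPM (0.71, SE 0.32, adjusted p = 0.395), whereas the dynactin subunit *Dctn2* was at 355 and 311 TPM against 177 and 183 TPM (-0.88, SE 0.19, adjusted p = 0.310). *Dync1i2* at 178 to 255 TPM and *Dctn3* at 131 to 203 TPM had the KO libraries within the controls.

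Cilium and spermatid kinesins did not lie on one side as a group. The fitted change was above 0 for 6 of 12 genes and below 0 for 6, and the median of 0.16 was -0.17 after median-ratio scaling and -0.10 after quantile normalization. Both KO libraries lay above both controls for 5 (41.7%) and below for 2 (16.7%), shares near the 38.6% and 12.1% of all genes tested. None passed an FDR of 0.05 by limma, and 1, *Kifap3*, was higher at an unadjusted p under 0.05 (8.33%, against 10.7% of all genes). They were also the group with the widest controls: control 1 was above control 2 for 10 of 12, by more than 1.5-fold for 8, compared with 4 of 14 spindle genes and 6 of 17 transport genes. These counts are on unscaled TPM, and the share over all genes was not counted. The median of control 1 minus control 2, in log2(TPM + 1), was 0.71 for this group and 0.36 over all genes tested.

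The heterotrimeric motor that drives material into the cilium was abundant in all libraries. *Kif3a* was at 64.4 and 41.2 TPM in the control pair against 71.8 and 82.1 TPM in the KO libraries (0.57, SE 0.29, adjusted p = 0.425). *Kif3b*, its partner, was at 104.8 and 38.0 TPM against 79.2 and 86.5 TPM (0.38, SE 0.52, adjusted p = 0.749), so the KO libraries lay between the controls. Its change was 1.10 with control 1 left out and -0.34 with control 2 left out. The adaptor subunit *Kifap3* was at 49.2 and 41.6 TPM against 72.5 and 82.4 TPM (0.76, SE 0.21, adjusted p = 0.315), without overlap. *Kif3c*, an alternative partner of KIF3A, was at 3.36 to 5.68 TPM with overlap. The ratio of *Kif3b* to *Kif3a* was 1.63 in control 1 and between 0.922 and 1.10 in the other 3 libraries.

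The motors *Kif9*, *Kif6*, *Kif27* and *Kif19a* were each at their highest level in control 1. *Kif9*, needed for the beat of the sperm flagellum, was at 138 TPM in control 1, 47.0 TPM in control 2, and 39.5 and 49.8 TPM in KO 1 and 2 (-0.85, SE 0.57, adjusted p = 0.523). With control 2 left out its change was -1.62, and with control 1 left out it was -0.08. *Kif6*, a motor of the flagellum and of motile cilia, was at 15.8 and 7.71 TPM against 3.81 and 6.68 TPM, below both controls (-0.99, SE 0.52, adjusted p = 0.437). *Kif27*, a relative of *Kif7* tied to motile cilia, was at 59.3 and 18.4 TPM against 28.0 and 35.9 TPM, between the controls, and its change of -0.06 was -0.88 without control 2 and 0.76 without control 1. *Kif19a*, which trims microtubules at ciliary tips, was at 15.9 and 1.90 TPM against 0.72 and 0.53 TPM (-2.11, SE 0.95, adjusted p = 0.389). Its change was -3.38 with control 2 left out and -0.84 with control 1 left out. Their sum was 229 TPM in control 1, 75.0 TPM in control 2 and 72.0 and 92.9 TPM in KO 1 and 2, so control 1 stood apart from the other 3 libraries. The 8 pachytene and diplotene markers and the 6 Leydig markers given above were also at their highest sum in control 1, and their part in these differences was not tested.

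Set against *Kif3a* in the same library, these motors were lower in both KO libraries than in either control. The ratio of *Kif9* to *Kif3a* was 2.15 and 1.14 in the controls and 0.550 and 0.607 in the KO libraries. For *Kif6* it was 0.246 and 0.187 against 0.0531 and 0.0814, and for *Kif19a* 0.247 and 0.0462 against 0.0100 and 0.0065. For *Kif27*, at 0.921 and 0.446 against 0.390 and 0.437, the groups were almost level once control 1 was set aside. *Kif3a* itself was higher in both KO libraries than in either control, and the levels of *Kif9* and *Kif27* overlapped between the groups. These ratios do not depend on the scaling of the libraries, and the differences between them were not tested. The share of other gene pairs that separate in this way was not counted.

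**Figure D4:**
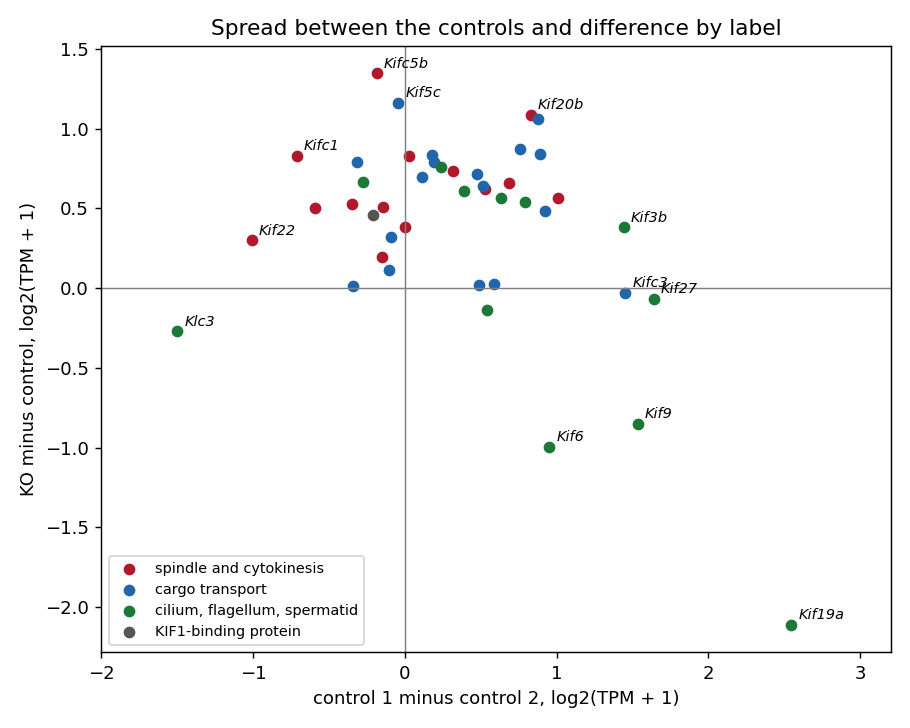
Change between groups against the difference between the controls for the 44 kinesins tested. The x axis gives log2 of control 1 over control 2 and the y axis the log2 fold change, libraries labelled KO over controls (both log2 of TPM + 1), with a point for each gene coloured by role, and both axes use the same control libraries. *Kif19a*, *Kif9* and *Kif27*, at the right, were higher in control 1 than in control 2, and *Kifc5b*, *Klc1* and *Kif23* are near 0 on the x axis and above 0 on the y axis.

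Hedgehog and centriole kinesins were above the controls. *Kif7*, which orders the tip of the primary cilium for Hedgehog signalling, was at 9.84 and 7.29 TPM among controls, compared with 13.5 TPM in both KO libraries (0.61, SE 0.34, adjusted p = 0.459). *Kif24*, which keeps the mother centriole from growing a cilium too early, was at 33.4 and 18.9 TPM against 39.1 and 35.2 TPM (0.54, SE 0.35, adjusted p = 0.514). The change of *Kif24* was 0.15 with control 2 left out and 0.94 with control 1 left out. After median-ratio scaling it was 0.22 and the groups overlapped.

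The kinesins best known from spermatids were at low levels, up to 12.2 TPM. *Kif17*, which shuttles the CREM coactivator ACT between nucleus and cytoplasm, was at 3.29 and 4.20 TPM in the control pair against 6.81 and 6.18 TPM in the KO libraries (0.66, SE 0.38, adjusted p = 0.463), without overlap. *Klc3*, a light chain that binds outer dense fibres and mitochondria, was at 3.67 and 12.2 TPM against 7.47 and 4.03 TPM (-0.27, SE 0.67, adjusted p = 0.871), with wide overlap, and its change was -1.02 without control 1 and 0.48 without control 2. The higher sum of spermatid markers in the KO libraries was mostly *Spaca1*, at 7.34 and 13.9 TPM against 27.0 and 26.6 TPM, while *Tnp1* was listed at 0 in both controls and at no more than 1.02 TPM in the KO libraries. Of 9 genes tested that work with these kinesins in germ cells, 3 lay above (33.3%) and 2 below both controls (22.2%), where 38.6% and 12.1% of all genes tested did, with a median of -0.23 (-0.57 after scaling). *Piwil1*, the pachytene piRNA protein, was at 706 TPM in control 1 and 238 to 364 TPM in the other libraries, and *Vdac2*, of the mitochondrial outer membrane, at 451 and 412 TPM against 338 and 344 TPM. *Vdac3* was at 496 to 695 TPM and *Nup62* at 149 to 200.02 TPM. The spermatid partners *Odf1* and *Fhl5*, the gene of ACT, were not above 0.69 and 0.23 TPM in any library.

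The cAMP response element, TGACGTCA, to which CREM binds, was found in 4 kinesin promoters of 43 (9.30%), against 2.96% over promoters of genes tested and 1.79% over all in the table. Those 4 belong to *Kif17*, *Kif5c*, *Klc1* and *Kif18a*, which come from different roles. They are printed on the strand of the gene with the element in capitals and the same kind of position.
Kif17, -86, chr4:138262154-138262183, plus strand: attccgtcctgTGACGTCAcggaggttgcc
Klc1, -33, chr12:111758824-111758853, plus strand: gcgagggcgggTGACGTCAcggcgcacagc
Kif5c, -26, chr2:49619249-49619278, plus strand: gatctctgcagTGACGTCAccgtgccgagg
Kif18a, 30, chr2:109280757-109280786, plus strand: gtctgacgtgcTGACGTCAtccgaacggca
In all 4 genes both KO libraries lay above both controls, with log2 fold changes of 0.66, 0.84, 1.16 and 0.51 in the order printed. That held for 30 of the 44 kinesins tested (68.2%) and for 38.6% of all genes tested. After median-ratio scaling it still held for *Kif17*, *Klc1* and *Kif5c*, and not for *Kif18a* (0.18). A link between the element and these levels was not tested. *Crem* itself was at 91.5 and 52.7 TPM in the control pair against 70.2 and 85.5 TPM in the KO libraries, within the controls. These matches too are letters in a window, with no measure of binding here.

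Several members share sequence with another annotated gene, so part of their value may be another gene's reads. Of the 75-base stretches of the longest transcript used, 42.8% for *Kif3c*, 29.3% for *Kif20a* (with *Cdc23*), 22.1% for *Kif2a* (with *Dimt1*), 19.5% for *Kifc3*, 15.8% for *Kif1bp*, 15.4% for *Kif4* (with *Pdzd11*), 14.6% for *Kif7* and for *Klc3* (with *Ercc2*), and 11.8% for *Klc2* occurred in another annotated gene. The setting for strand is not given in the sources used here, so reads of genes that overlap on opposite strands cannot be told apart.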

How the data were processed

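RNA of GFP-positive cells from P18 testes was measured in 2 control and 2 KO samples, grouped by their labels. The authors trimmed reads with Trim Galore 0.5.0 and cutadapt 1.16, aligned them to UCSC mm10 with STAR 2.6.0a and estimated expression with RSEM 1.3.1 (versions per the submitters' processing notes), and deposited TPM for each gene and library. TPM keeps no depth, so precision from depth is unknown. Whether the samples were littermates is not stated, so p-values measure the spread between these samples.

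The 14512 genes whose mean TPM was 1 or more were fitted by genotype with limma 3.58.1 in R 4.3.3 on log2(TPM + 1), using a mean-variance trend, with p-values adjusted over all of them by the Benjamini-Hochberg method at an FDR of 0.05. Fold changes on this scale understate low genes. In 27 entries a date stands in place of a symbol, and these were given no name. Median-ratio scaling and quantile normalization, other pseudocounts and filters, no trend, a replicate block and leaving out each library were alternatives. A crossed block and the sum of *Kifc1* and *Kifc5b* were added after the data were seen. The procedure was run on simulated data with the same spread in both groups and changes larger than those of most kinesins. It was checked there for the size of change returned, not for calls of changes as small as those seen here.

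Members and lists were chosen with earlier results of these data known. Named were the members tested whose groups do not overlap (25 at most, by size of change), the 3 with the highest mean TPM in each role, *Kif17*, *Klc3*, *Kif9*, *Kif2c*, *Kif18a*, *Kifc1*, *Kifc5b*, *Cenpe*, *Zfp541*, *Rec8*, and up to 4 members of each list with the highest TPM. Other members were added so that each is accounted for, and *Kif4-ps*, *Crem*, *Odf1*, *Fhl5* and the markers named after their values were seen. Reading frames and shared stretches came from GENCODE M21 transcripts. The study's ChIP-seq and single-cell experiments were not used here.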

Additional observations from a re-analysis of the deposited data

How the results depend on the processing

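Direction was kept by most results under the alternatives to scaling, pseudocount, filter and trend. Under median-ratio scaling 18 kinesins lay above and 6 below both controls, and the medians were 0.28 for spindle, 0.38 for transport and -0.17 for cilium and spermatid genes, -0.015 for all genes and -0.015 for *Klc2*. Quantile normalization gave 4 below and medians of 0.40, 0.44 and -0.10. The spindle median was 0.62 and 0.52 with pseudocounts of 0.1 and 5, 0.56 with no filter, and 0.56 with *Kifc1* and *Kifc5b* summed. Without a filter 1 gene of all was called higher and 1 lower, and with a minimum of 5 TPM 1 kinesin lay below both controls. Leaving out 1 library at a time, all genes called ranged from 0 to 5610 higher and 0 to 1875 lower, kinesins from 0 to 26 higher and 0 to 4 lower, those with no overlap from 31 to 36 above the controls and 2 to 9 below. Except under median-ratio scaling, the share of all genes tested without overlap was not counted beside these alternatives. Non-overlap is easier for every gene with 1 library fewer, so those counts cannot be compared with the count from all libraries. With 1 library left out, the medians ranged from 0.41 to 0.75 for kinesins, 0.58 to 0.66 for spindle, 0.39 to 0.89 for transport and -0.094 to 0.64 for cilium and spermatid genes. Direction turned for *Rec8* (-0.25 to 1.59), *Kif3b* (-0.34 to 1.10), *Klc3* (-1.02 to 0.48), *Kif22* (-0.20 to 0.81), *Kif27* (-0.88 to 0.76), *Kifc3* (-0.75 to 0.70), *Kif3c* (-0.41 to 0.13), *Kif21b* (-0.26 to 0.32), *Kifc2* (-0.22 to 0.27) and *Kif1a* (-0.16 to 0.18), and *Kif19a* ranged from -3.38 to -0.84. All those extremes came from leaving out a control, except the 0s, the lowest spindle median and the lowest counts above and below. The cause was not tested.

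With the replicate number as a block 0 genes were called, and the kinesins' adjusted p from limma ran from 0.629 to 0.996. Deviations of same-numbered samples had a correlation of -0.16 over 14512 genes. With 2 samples in each group, crossed numbers must give the same value with the opposite sign, 0.16. The correlation therefore cannot show whether the numbers pair the samples. A crossed block called 7 genes higher and 80 lower, 0 of them kinesins. Two-sided exact permutation over the samples cannot go below p = 0.33, and the depth of the libraries is unknown.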
